A study of Drosophila melanogaster with 3 samples.

Results

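The cuticle protein genes of the Cpr and Tweedle (Twdl) families were examined for binding of Hr3, a nuclear receptor of the ecdysone response, in Drosophila melanogaster embryos. The genes were chosen by symbol, as all protein-coding genes of the Ensembl annotation whose symbol starts with Cpr and a digit or with Twdl. They number 95, of the 13945 protein-coding genes on 6 chromosome arms (X, chromosome 4 and both arms of chromosomes 2 and 3). The Cpr family holds 70 of them and the Tweedle family 25. The data are chromatin immunoprecipitation with sequencing (ChIP-seq) peak lists from 3 biological replicates of 1 group, whole embryos of mixed sex collected from 0 to 24 h. All flies carried a stable transgene of Hr3 (also Hr46) with GFP at its C-terminus, the precipitation used an antibody against GFP, and the labels do not give the promoter that drives the transgene. There was no second condition, and embryos without the tagged protein were not analysed here. Because whole embryos were used, strong binding in few cells and weak binding in many cannot be told apart.

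The insect cuticle is secreted by the epidermis and consists of chitin fibres and structural proteins. Most Cpr proteins carry the Rebers and Riddiford (RR) consensus, a chitin-binding domain, whereas the Tweedle proteins form a separate family that lacks it. One of them, TwdlD, is known from dominant mutations that change body shape. Larval cuticle is laid down late in embryogenesis and cuticle is renewed at each moult under the control of ecdysone, and Hr3 is one of the receptors induced by that hormone.

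No reproducible Hr3 binding was listed at the promoters of the cuticle genes. A promoter summit was a peak summit within 500 bp of any transcription start site (TSS) of the gene. Of the 95 genes, 0 had a promoter summit in the authors' reproducible list of 5357 peaks, against 23.9% of all protein-coding genes. A count of 0 of 95 allows a share of up to 3.16% (3 counts of the total), and the 95% exact binomial interval ends at 3.81%, both for counting error only. Both limits treat the genes as independent, although 64 of the 95 lie in 13 clusters, so they may be too narrow. The same count of 0 was found in each replicate taken alone. Among the 5357 strongest peaks of replicates 1, 2 and 3, 0, 0 and 0 cuticle genes had a promoter summit, against 23.8%, 23.8% and 22.8% of all genes.

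The start sites themselves carry a core promoter element that is rare among the genes that were bound. The letters TATAAA, the TATA box at which the TATA-binding protein docks, stood 20 to 40 bases upstream of the canonical TSS on the coding strand in 48 of the 95 cuticle genes. That is 50.5% of them (exact binomial interval at 95% from 40.1% to 60.9%), while it was present in 7.20% of all protein-coding genes and 1.89% of genes with a reproducible promoter summit. The element was present in 34 Cpr and 14 Tweedle genes. The 60 bases before the TSS of 6 genes are shown on dm6, 5′ to 3′ on the strand of the gene, with TATAAA in capitals, to show where the element stands in genes of both families. They were chosen among the 48 genes that have it, and of the 11 genes with a weak promoter peak described further on, 5 have it.
Cpr65Ea, chr3L:7086609-7086668, minus strand: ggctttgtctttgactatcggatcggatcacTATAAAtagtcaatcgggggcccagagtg
Cpr72Eb, chr3L:16364839-16364898, plus strand: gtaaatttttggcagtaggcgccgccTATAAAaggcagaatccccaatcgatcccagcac
Cpr76Ba, chr3L:19518333-19518392, minus strand: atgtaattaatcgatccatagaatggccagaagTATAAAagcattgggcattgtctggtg
Cpr78Cc, chr3L:21300520-21300579, plus strand: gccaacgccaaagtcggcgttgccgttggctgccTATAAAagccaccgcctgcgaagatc
TwdlM, chr3R:26619058-26619117, plus strand: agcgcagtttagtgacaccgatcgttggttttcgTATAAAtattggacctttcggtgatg
TwdlD, chr3R:26639965-26640024, plus strand: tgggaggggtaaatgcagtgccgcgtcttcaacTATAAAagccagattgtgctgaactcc
None of these 6 had a reproducible promoter summit, and the pooled list held weak promoter peaks at Cpr65Ea and Cpr72Eb alone.

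Other elements near the start sites differed less from the rest of the genes. The letters TCAGT, the core of the initiator, lay within 10 bases of the TSS on the coding strand in 13.7% of the cuticle genes, against 12.1% of all genes. The DNA replication-related element (DRE), TATCGATA, which is bound by the factor DREF at many housekeeping promoters, lay within 250 bases of the TSS on either strand in 2.11% of the cuticle genes. It was present in 9.42% of all genes and in 15.2% of genes with a reproducible promoter summit. The ROR response element (RORE), the site recognised by Hr3 and its mammalian counterparts, lay within 500 bases of the TSS on either strand in 1.05% of the cuticle genes, the 1 gene Cpr47Ef, against 2.69% of all genes. The letters AGGTCA, which make up the core of part of the RORE sequences, were present within the same distance on either strand in 28.4% of the cuticle genes (95% exact binomial interval 19.6% to 38.6%) and 23.4% of all genes. The window from 250 bases before to 50 after the TSS had a median GC content of 46.0% in the cuticle genes, 38.0% in all genes and 36.7% in genes with a reproducible promoter summit.

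**Figure D1:**
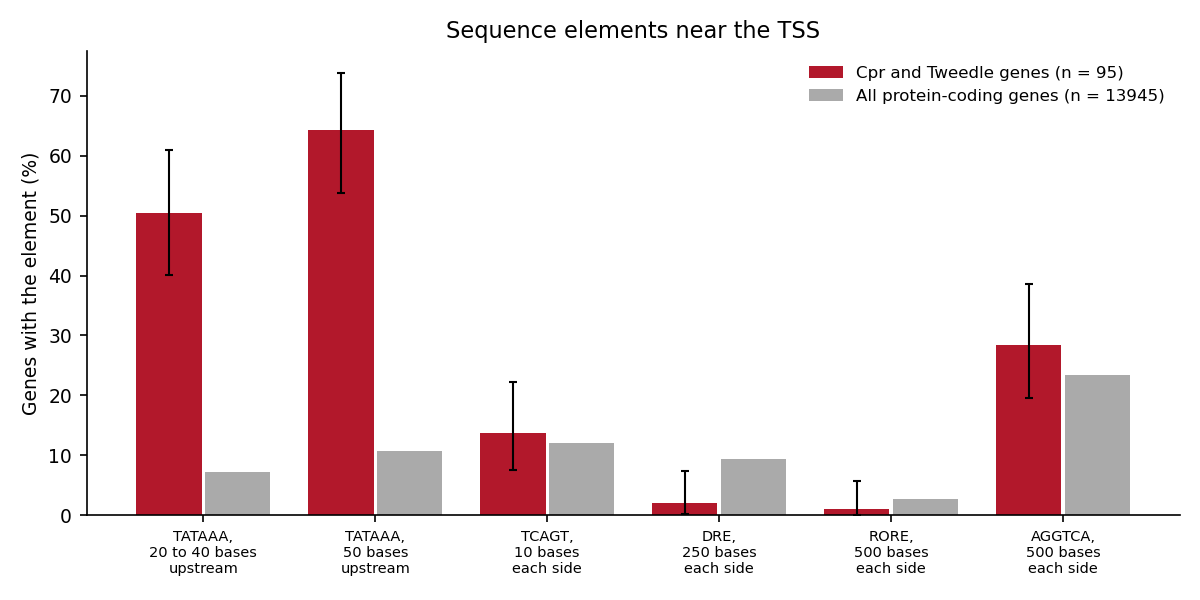
Share of genes, in percent, with each sequence element at the stated distance from the canonical TSS, for the 95 Cpr and Tweedle genes (red, with 95% exact binomial intervals that cover counting error only) and all 13945 protein-coding genes (grey). TATAAA 20 to 40 bases upstream was present in 50.5% of the cuticle genes and 7.20% of all genes.

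The cuticle genes are compact and stand alone more often than other genes, and such genes were bound less often. Their median length was 1088 bp, against 2166 bp for all protein-coding genes. A single TSS was annotated for 87 of them (91.6%), against 73.5% of all genes. Among genes with 1 TSS, no TSS of another gene within 500 bp and a body of at most 3000 bp, 0 of 76 cuticle genes had a reproducible promoter summit, against 7.50% of the 5110 genes of that kind. Among those that also had TATAAA 20 to 40 bases upstream, it was 0 of 38 cuticle genes, against 2.89% of 622 genes. These restricted sets were chosen after seeing the data. At 2.89%, a share of 0 in 38 genes is near the background of such genes, so the absence of reproducible promoter peaks was not shown to be particular to the cuticle genes within that class.

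Weak peaks were listed at a few cuticle promoters. In the relaxed list of 23597 peaks called on the pooled replicates, which keeps peaks far below the reproducible ones, 11 of the 95 genes (11.6%) had a promoter summit, against 47.5% of all genes. The 11 genes comprised 9 Cpr and 2 Tweedle genes. Among compact isolated genes the shares were 14.5% of the 76 cuticle genes and 23.5% of all 5110, and among those with TATAAA they were 13.2% of the 38 cuticle genes and 12.9% of all 622. In the class with TATAAA, the share of cuticle genes with a weak promoter peak, 5 of 38, was thus near the background.

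The first cuticle promoter appeared well below the end of the reproducible list. Taking the pooled peaks from the strongest downwards, the strongest 8000 reached the promoters of 1 cuticle gene (1.05%) and of 30.2% of all genes. The strongest 12000 reached 4 cuticle genes and 37.0% of all genes, and the strongest 20000 reached 8 cuticle genes and 44.9% of all genes.

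**Figure D2:**
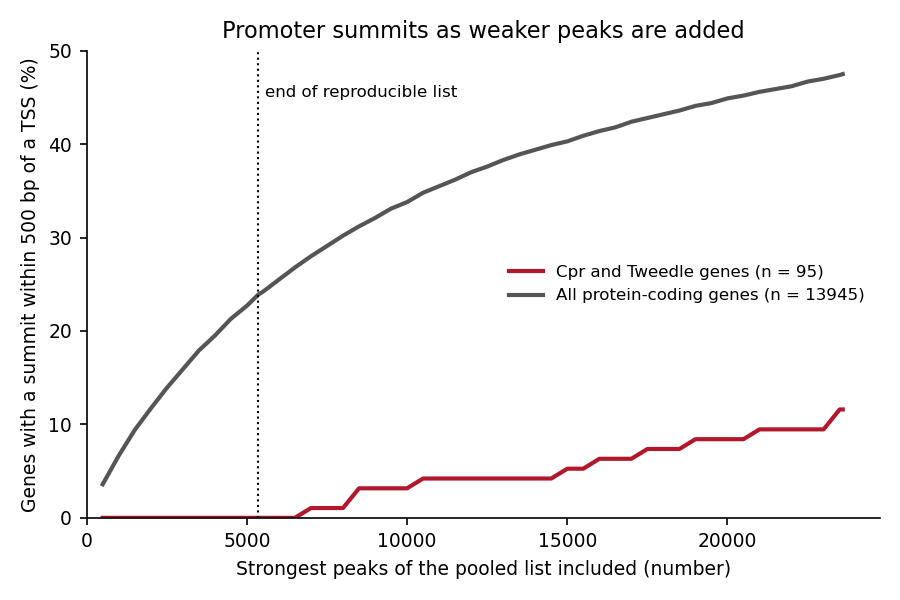
Share of genes, in percent, with a summit within 500 bp of a TSS (vertical axis) as peaks of the pooled list are added from the strongest to the weakest (horizontal axis), for the 95 Cpr and Tweedle genes (red) and all protein-coding genes (grey). The red line stays at 0 through the 5357 peaks of the reproducible list, marked by the dotted line, and ends at 11.6%, while the grey line ends at 47.5%.

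The signals of these peaks, all of them the authors' values, were low. The 12 pooled promoter peaks of the cuticle genes had signals from 31.3 to 89.1, and the weakest peak of the reproducible list had 105. The strongest promoter peak per gene had a median signal of 41.0 over the 11 cuticle genes with one, against 106 over all genes with one. The lowest signal in the pooled list was 30.9.

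To compare replicates, each replicate's signal was divided by its median signal at the reproducible peaks, which was 40.4, 81.2 and 68.6 in replicates 1, 2 and 3. In this relative signal, the lowest values listed were 0.228, 0.150 and 0.194. Relaxed promoter summits were listed for 12, 14 and 14 cuticle genes in replicates 1, 2 and 3, against 47.8%, 50.1% and 45.9% of all genes. At least 1 replicate had one for 27 cuticle genes (28.4%), against 60.8% of all genes, and all 3 replicates had one for 4 (4.21%), against 36.6% of all genes. Of the 27 genes, 18 had one in 1 replicate alone. The share seen in all 3 replicates among genes seen in any was 14.8% for the cuticle genes and 60.1% for all genes. The median relative signal of the strongest promoter peak was 0.321, 0.198 and 0.240 over the cuticle genes with one in replicates 1, 2 and 3. Over all genes with one it was 0.598, 0.520 and 0.566.

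Cpr65Ea, Cpr67Fa1, Cpr72Eb and Cpr47Eb were the genes with a promoter summit in all 3 replicates. All 4 encode RR cuticle proteins. At Cpr65Ea the pooled peak lay on 3L from 7086598 to 7087057 with its summit 220 bp upstream of the TSS and a signal of 89.1, rank 6530 in the pooled list. Its promoter had relative signals of 0.461, 0.449 and 0.420 in replicates 1, 2 and 3, all under a typical reproducible peak and close to each other. At Cpr67Fa1 the stronger of a pair of pooled peaks lay 483 bp upstream of the TSS on 3L from 10889277 to 10889736 with a signal of 73.8, and the weaker one lay 189 bp upstream with 57.8. The strongest promoter peak of Cpr67Fa1 had relative signals of 0.394, 0.398 and 0.358.

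At Cpr72Eb the pooled summit lay 398 bp upstream of the TSS on 3L from 16364271 to 16364730, with a signal of 71.1. The peaks that cover this summit had relative signals of 0.308, 0.388 and 0.323, close to each other. In replicate 2 that peak has its own summit outside the 500 bp, and the peak with a summit inside them had 0.237.

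The 101 bases centred on the strongest pooled promoter summits of 3 of these genes are shown on dm6, plus strand, because they are the strongest listed at cuticle promoters. Matches to AGGTCA on either strand would stand in capitals, and there is none in these windows.
Cpr65Ea, chr3L:7086778-7086878: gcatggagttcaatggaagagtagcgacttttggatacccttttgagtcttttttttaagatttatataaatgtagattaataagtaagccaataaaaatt
Cpr67Fa1, chr3L:10889457-10889557: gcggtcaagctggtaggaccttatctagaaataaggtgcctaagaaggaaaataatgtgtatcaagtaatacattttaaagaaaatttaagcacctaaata
Cpr72Eb, chr3L:16364451-16364551: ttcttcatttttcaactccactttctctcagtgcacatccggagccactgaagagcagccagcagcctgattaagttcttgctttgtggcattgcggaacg
All 3 summits lay in intergenic sequence upstream of their gene.

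At Cpr47Eb, the remaining gene seen in all 3 replicates, the summit was closest to the TSS, 39 bp upstream, on 2R from 11254898 to 11255357, with a signal of 41.0. Its relative signals were 0.334, 0.183 and 0.215, so that replicates 2 and 3 were near the lowest values their lists hold.

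The other 7 genes with a pooled promoter peak were seen in fewer replicates. Cpr67Fb had a pooled summit 409 bp upstream of its TSS with a signal of 58.6 and a promoter summit in replicate 3 alone, with a relative signal of 0.301. In replicates 1 and 2 that position fell within the peak of a stronger neighbouring summit outside the 500 bp. Cpr51A had relative signals of 0.353 and 0.199 in replicates 2 and 3, and the peak of replicate 2 alone covered its pooled summit, 480 bp downstream of the TSS. Twdlalpha had 0.340 and 0.208 in replicates 1 and 2, with its summit in an intron 114 bp downstream of the TSS. TwdlY had 0.250 and 0.161 in replicates 1 and 2. Its pooled summit, in the coding exon, was covered by the peak of replicate 2 alone. The remaining 3 were each seen in 1 replicate, Cpr12A in replicate 3 with a relative signal of 0.247, and Cpr66Cb and Cpr47Eg in replicate 2 with 0.170 and 0.242. Cpr73D and Cpr67B had a promoter summit in replicates 2 and 3 without one in the pooled list.

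**Figure D3:**
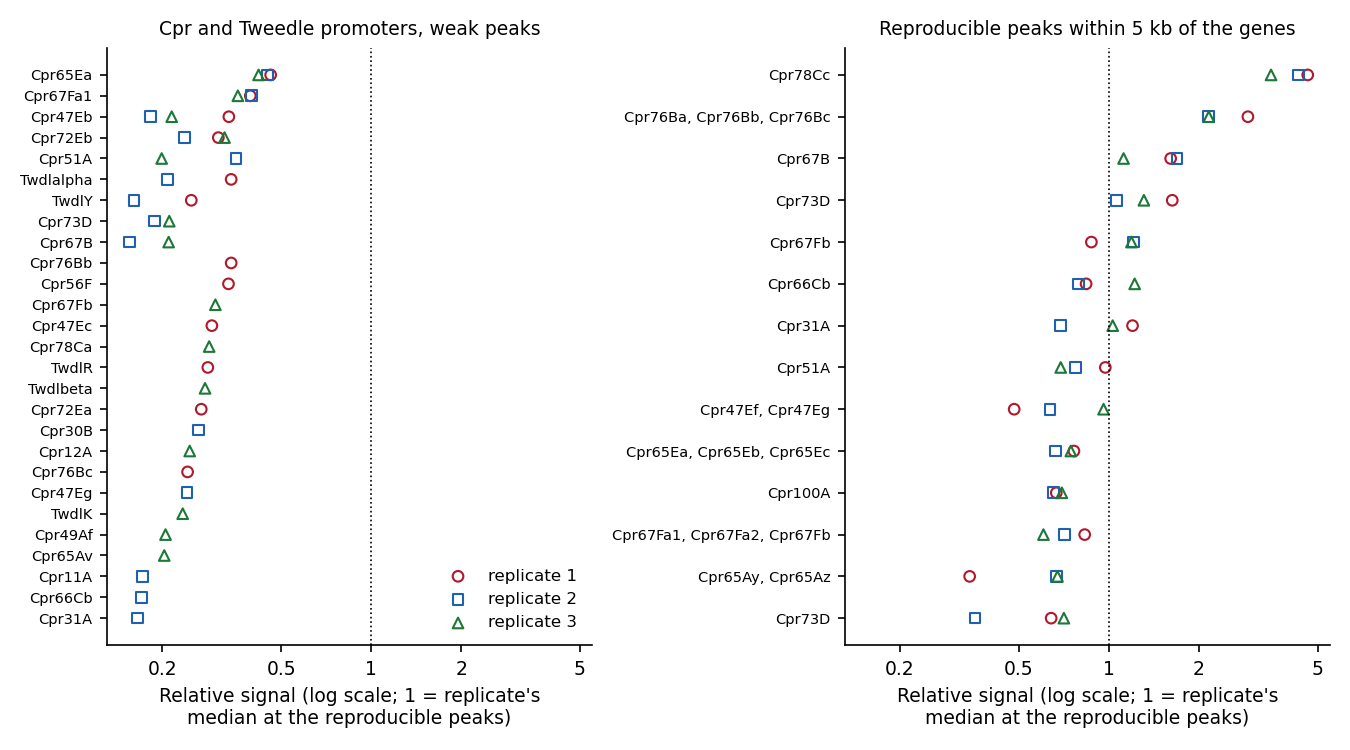
Relative signal (log scale, where 1 is the replicate's median at the reproducible peaks) in replicates 1 (circles), 2 (squares) and 3 (triangles). The left panel shows the strongest promoter peak of the 27 Cpr and Tweedle genes with one in any replicate, a missing symbol meaning that no promoter summit was listed, and the right panel shows the 14 reproducible peaks within 5 kb of a cuticle gene. All values on the left are at or below 0.461, and the highest on the right reach 4.63.

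Reproducible binding did occur near some Cpr genes, in part at promoters of other genes. Within 5 kb of the gene body, 20 of the 95 cuticle genes (21.1%, 95% exact binomial interval 13.4% to 30.6%) had a reproducible summit, against 53.2% of all genes. All 20 were Cpr genes, and 0 of the 25 Tweedle genes had one. The share within 5 kb among compact isolated genes was not counted. Their median distance to a reproducible summit, 8.97 kb, was beyond that reach, so 53.2% is not the background of such genes. Among the 5357 strongest peaks of each replicate the count was 20, 20 and 20 cuticle genes, against 53.5%, 52.9% and 52.2% of all genes. In the pooled list 70 cuticle genes (73.7%) had a summit within 5 kb, against 86.2% of all genes, and 25 cuticle genes had no summit of the pooled list in that reach. The 20 genes shared 14 reproducible summits, of which 6 lay at promoters of other genes. By place, 9 were intergenic, 4 were intronic and 1 was in an exon outside coding sequence. Their median signal was 172, close to the median of 182 over the reproducible list.

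The strongest of the 14 peaks was near Cpr78Cc and sat at the promoter shared by CG11309 and CG7632. It lay on 3L from 21304419 to 21304738, 86 bp downstream of the TSS of CG11309 and 3401 bp from the body of Cpr78Cc, with relative signals of 4.63, 4.31 and 3.49. The next was the strongest whose nearest TSS was that of a cuticle gene. It lay in intergenic sequence on 3L from 19516586 to 19516872, 1608 bp downstream of the TSS of Cpr76Ba and 828 bp past the end of that gene. Its relative signals were 2.92, 2.16 and 2.16, all above the median reproducible peak, and Cpr76Bb and Cpr76Bc were also within 5 kb. The peak near Cpr67B lay 79 bp upstream of the TSS of CG4022 and at the promoter of Cpsf5, a subunit of the mRNA cleavage machinery, with 1.61, 1.69 and 1.12.

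The 101 bases centred on the summits near Cpr76Ba and Cpr67B are shown on dm6, plus strand, with AGGTCA in capitals. They set the strongest peak whose nearest TSS belongs to a cuticle gene beside one at the promoters of other genes.
Cpr76Ba, chr3L:19516674-19516774: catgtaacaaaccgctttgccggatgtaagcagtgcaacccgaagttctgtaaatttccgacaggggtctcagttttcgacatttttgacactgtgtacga
Cpr67B, chr3L:9410861-9410961: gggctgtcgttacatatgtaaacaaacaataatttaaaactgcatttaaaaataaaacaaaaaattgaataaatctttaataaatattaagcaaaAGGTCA
Within 100 bases of the summit, AGGTCA was present at 2 of the 14 reproducible summits near cuticle genes (14.3%), against 4.72% of all reproducible summits. A RORE was present at 0 of the 14, against 1.29% of all reproducible summits.

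Cpr73D was the 1 cuticle gene with reproducible summits inside its body. Its annotated span of 18590 bp overlaps Ogdh, which encodes a subunit of the mitochondrial oxoglutarate dehydrogenase complex. The stronger summit lay 524 bp upstream of the nearest annotated TSS of Ogdh with relative signals of 1.63, 1.06 and 1.31. The weaker one lay 53 bp upstream of a different annotated TSS of Ogdh with 0.641, 0.356 and 0.707. Both summits were nearer to a start site of Ogdh than to any of Cpr73D.

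The 4 other reproducible peaks whose nearest TSS was that of a cuticle gene were weaker. The summit 608 bp upstream of Cpr67Fb was the closest reproducible summit to a cuticle TSS and just outside the promoter limit, with a signal of 125 and relative signals of 0.830, 0.712 and 0.604. The pooled summits 483 bp upstream of Cpr67Fa1 and 480 bp downstream of the TSS of Cpr51A were just inside it. At 1867 bp upstream of Cpr100A the relative signals were 0.667, 0.653 and 0.696. At 2142 bp upstream of Cpr65Eb they were 0.764, 0.664 and 0.746. At 3070 bp upstream of Cpr51A they were 0.973, 0.773 and 0.690. These 4 peaks were all intergenic and below the median reproducible peak in each replicate.

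The remaining peaks within 5 kb lay at or near other genes. The peak near Cpr67Fb at the promoter of Aps had relative signals of 0.874, 1.21 and 1.19. The peak near Cpr66Cb lay at the promoters of CG7083 and Prim1, a subunit of DNA primase, with 0.839, 0.790 and 1.22. The peak near Cpr31A lay in an intron of Pen, an importin alpha, with 1.20, 0.688 and 1.03. The peak near Cpr47Ef and Cpr47Eg lay 680 bp upstream of TpnC47D, a troponin C of muscle, with 0.482, 0.636 and 0.960. The peak near Cpr65Ay and Cpr65Az lay at the promoter of CG13297 with 0.342, 0.667 and 0.673.

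By the median, the cuticle genes lay further from reproducible binding than other genes. From the gene body to the nearest reproducible summit the median was 15.5 kb for the cuticle genes and 4.18 kb for all protein-coding genes. It was 13.9 kb for Cpr and 20.8 kb for Tweedle genes, and the closest Tweedle gene was 7.59 kb away. The compact isolated genes of the genome had a median of 8.97 kb. Their upper quartile was 23.3 kb, against 22.5 kb for the cuticle genes, so at that end the cuticle genes were not further away. Over 10 kb from any reproducible summit were 64 cuticle genes (67.4%), against 47.5% of the compact isolated genes and 32.9% of all genes. Measured to the 5357 strongest peaks of each replicate, the median for the cuticle genes was 15.4, 15.4 and 15.5 kb.

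**Figure D4:**
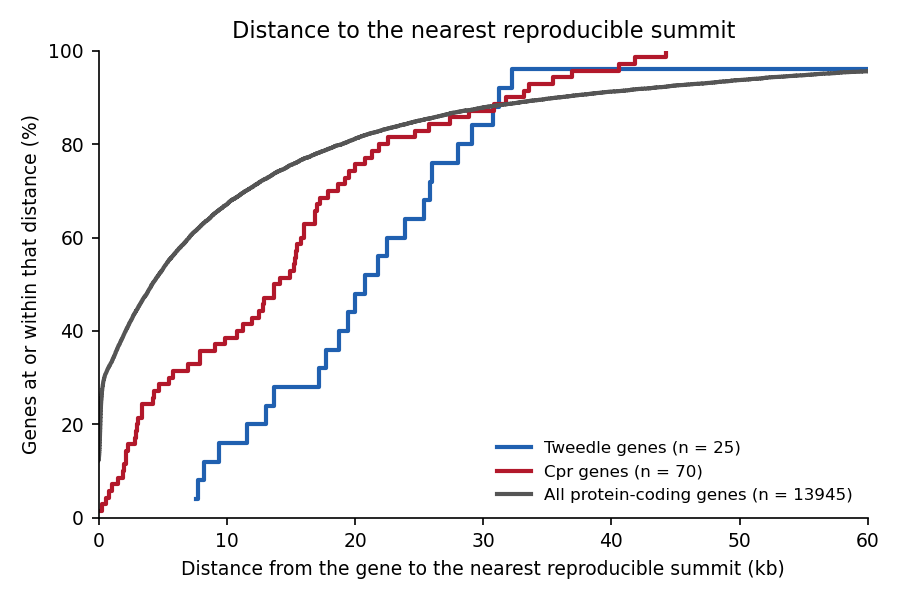
Cumulative share of genes, in percent, at or within a distance in kb from the gene body to the nearest reproducible summit, for 25 Tweedle genes (blue), 70 Cpr genes (red) and all 13945 protein-coding genes (grey). The medians are 20.8, 13.9 and 4.18 kb, and the blue line starts at 7.59 kb.

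Around the cuticle genes, summits of the pooled list did not become denser toward the start site. That list also holds the reproducible peaks, and a summit in reach of several genes was counted for each. In the pooled list, summits numbered 12.6 per kb and 100 genes within 500 bp of the canonical TSS of the cuticle genes. From 500 to 1000, 1000 to 2000 and 2000 to 5000 bp the values were 13.7, 14.2 and 14.2. Over all protein-coding genes the 4 values were 55.0, 19.9, 19.7 and 20.6, highest in the first 500 bp. For the reproducible list the values were 0, 2.11, 1.58 and 2.28 around the cuticle genes, against 23.4, 4.81, 4.81 and 5.63 around all genes.

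Most cuticle genes lie in clusters, which held fewer reproducible summits per length than the arms. With at least 3 cuticle genes at gaps of at most 20 kb, 64 of the 95 genes formed 13 clusters with a total span of 213 kb, and the other 31 lay outside. No reproducible summit fell inside 9 of the 13 clusters, and 4 held 1 each: Cpr47Ea to Cpr47Eg, Cpr65Au to Cpr65Az, Cpr65Ea to Cpr65Ec and Cpr67Fa1 to Cpr67Fb. The clusters span 4.70 to 38.5 kb, and short spans can be empty by their length alone. The share of empty spans of such lengths was not measured, so the count of 9 has no background beside it. The clusters held 1.87 reproducible and 9.84 pooled summits per 100 kb, against 4.00 and 17.6 per 100 kb over the 6 arms. Inside them stood 24 other protein-coding genes, and 1 of these, CG13297, had a reproducible promoter summit, against 23.9% of all genes. The 24 include cuticle protein genes with other symbols, such as Acp65Aa and Edg78E, which are counted again further on.

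The largest Tweedle cluster was nearly empty. TwdlM to TwdlD on 3R, from 26619118 to 26641054, holds 12 Tweedle genes in 21.9 kb with 0 reproducible and 1 pooled summit. No gene with a reproducible promoter summit was found within 50 kb on either side. The cluster Cpr49Aa to Cpr49Ah on 2R, from 12376626 to 12415170, holds 8 Cpr genes and 7 other genes in 38.5 kb with 0 reproducible and 2 pooled summits. The clusters Cpr62Ba to Cpr62Bc, Cpr64Aa to Cpr64Ad, Cpr76Ba to Cpr76Bd and TwdlF to TwdlV held 0 pooled summits. The clusters Cpr72Ea to Cpr72Ec and Cpr78Ca to Cpr78Cc held 1 pooled summit each, and TwdlX to Twdlalpha held 2.

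Beyond the ends of the clusters, promoter peaks of other genes were about as frequent as around any gene. Within 50 kb, 7 of the 13 clusters (53.8%) had a gene with a reproducible promoter summit on both sides, 4 (30.8%) on 1 side and 2 (15.4%) on neither. Around all protein-coding genes the shares were 46.1%, 38.2% and 15.7%, counting promoter summits of other genes. The flank of Cpr65Au to Cpr65Az was the highest, with 4.70, 4.73 and 4.90 at the promoter shared by CG10467 and loj, a p24 family protein of the secretory pathway, 36.4 kb away. On its other side the promoter shared by CG7376 and fmt, 12.4 kb away, had 0.620, 0.893 and 0.831. Beside Cpr49Aa to Cpr49Ah the promoter shared by DUBAI and Tmem18, 20.8 kb away, had 3.59, 4.83 and 4.05, and the one shared by CG8839 and ana3, a centriole protein, 31.8 kb away, had 0.677, 1.03 and 1.17.

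The cluster Cpr78Ca to Cpr78Cc was flanked most closely. The promoter of CG11309 and CG7632 lay 3.40 kb beyond it on one side. On the other, the promoter shared by CG12974 and pzg, a zinc finger protein of chromatin, lay 5.81 kb away with 1.26, 2.11 and 0.681, highest in replicate 2 and lowest in replicate 3. A stronger reproducible summit lay beside it, and a replicate's peak there can cover both. The cluster Cpr47Ea to Cpr47Eg had CG7737 at 29.1 kb with 1.91, 2.14 and 2.23, and CG13220 with CG9062 at 5.78 kb with 0.347, 1.33 and 0.991. The cluster Cpr72Ea to Cpr72Ec had CG13058 at 34.2 kb with 0.753, 0.740 and 1.23, and Agpat4, an acyltransferase of phospholipid synthesis, at 13.7 kb with 1.16, 0.931 and 0.993.

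The cluster Cpr64Aa to Cpr64Ad had VhaM9.7-c, a subunit of the vacuolar proton pump, at 21.0 kb with 0.508, 0.691 and 0.616, and Sqor, sulfide quinone oxidoreductase, at 23.8 kb with 1.15, 1.30 and 1.31. The cluster Cpr62Ba to Cpr62Bc had CG12024 at 15.0 kb with 1.78, 1.34 and 1.70. Its other flank was the promoter region of Cdc37, a co-chaperone, alpha-Spec and dlt at 28.7 kb with 0.825, 0.745 and 0.381. The clusters with a bound flank on 1 side were Cpr65Ea to Cpr65Ec, Cpr67Fa1 to Cpr67Fb, TwdlF to TwdlV and TwdlX to Twdlalpha, beside melt, Aps, DhpD and goe. Their relative signals averaged 2.28 ± 0.180 at melt, 1.09 ± 0.190 at Aps, 1.07 ± 0.128 at DhpD and 1.31 ± 0.387 at goe (SD, n = 3 each). The gene goe spans the cluster TwdlX to Twdlalpha, and its bound start site lay 7.59 kb beyond the cluster. Cpr76Ba to Cpr76Bd had none on either side.

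The genes next to the cuticle genes were bound in few cases. Of the 104 protein-coding genes that are the nearest neighbours of a cuticle gene outside the families, 14 had a reproducible promoter summit (13.5%), against 23.9% of all protein-coding genes. The neighbours include cuticle protein genes with other symbols, such as Edg78E, and the share among neighbours of other compact genes was not measured.

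**Figure D5:**
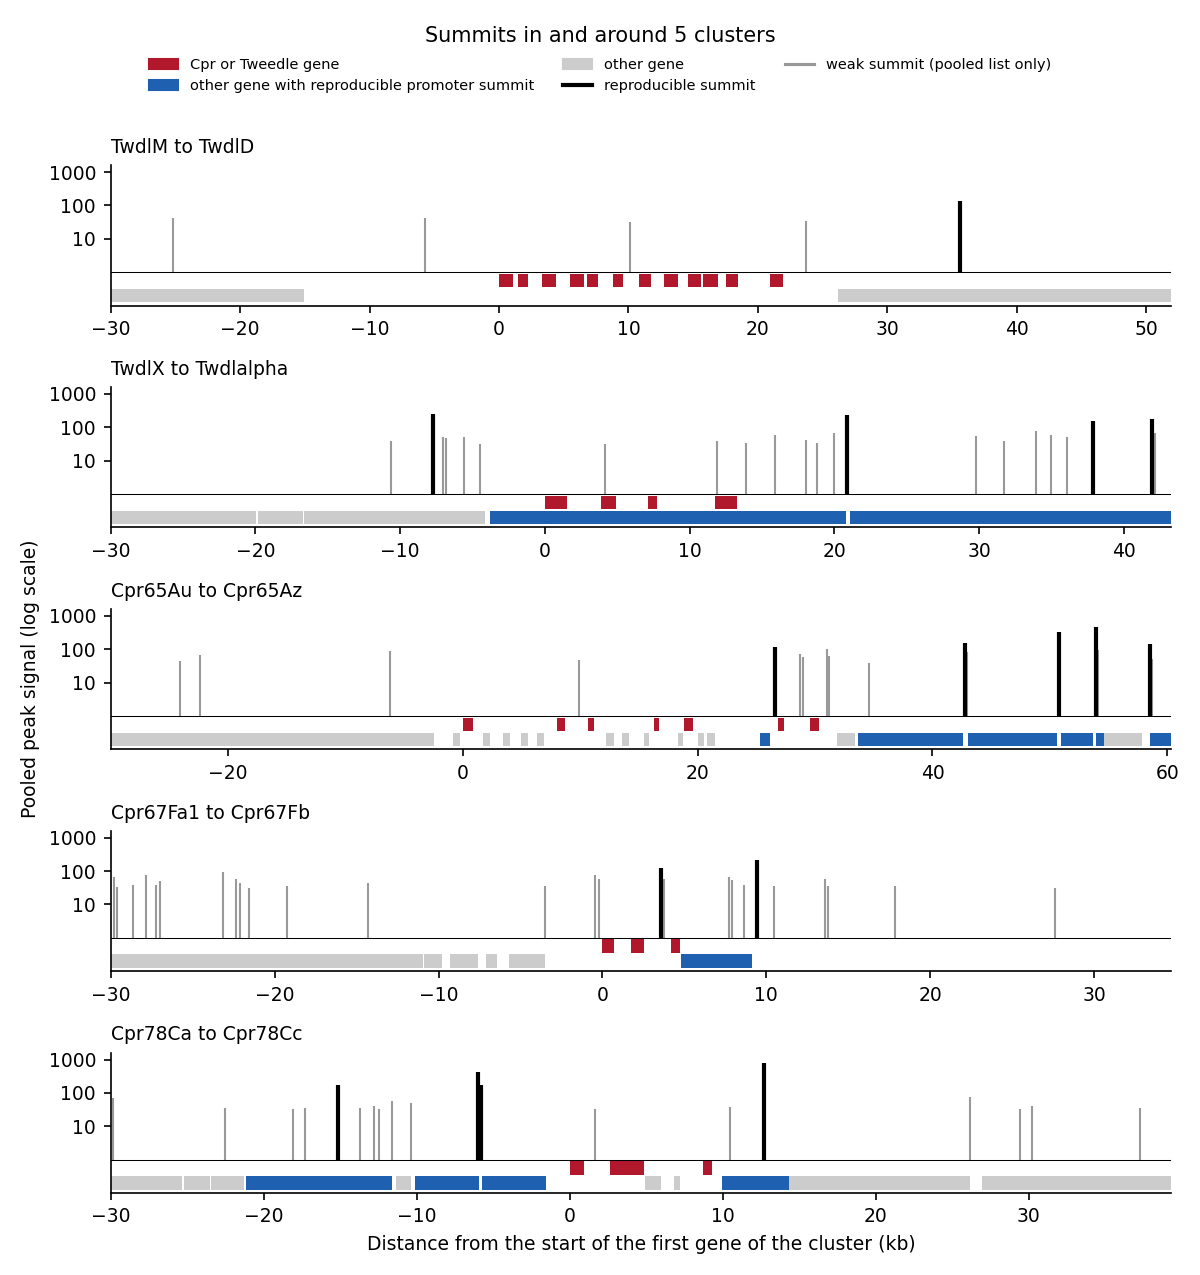
Maps of 5 clusters, with distance in kb from the start of the first cuticle gene and the authors' pooled signal of each summit on a log scale. Vertical lines are reproducible summits (black) and summits of the pooled list alone (grey), and boxes are cuticle genes (red), other genes with a reproducible promoter summit (blue) and other genes (light grey). The 12 Tweedle genes of the top map span 21.9 kb with 1 weak summit, while the bottom map shows bound promoters 5.81 kb before and 3.40 kb after the 3 Cpr genes.

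Copies in the genome touched a pair of cuticle promoters. Of the 32-base stretches within 500 bp of the TSS, 76.2% at Cpr65Ax1 and 72.1% at Cpr65Ax2 occur more than once on the arms. Reads from these near-identical copies cannot be placed with certainty, so the absence of peaks at them is uncertain. No other cuticle promoter had over 50% repeated stretches, the next being TwdlL with 16.6%, and the share of genes over 50% was 2.11% for the cuticle genes and 2.30% for all genes.

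Cuticle protein genes outside the Cpr and Tweedle symbols had no promoter peaks either. Of 29 other RR cuticle protein genes, such as the larval and adult cuticle proteins of the 65A region, 0 had a promoter summit in the reproducible list, against 23.9% of all genes, and 0 in the pooled list, against 47.5%. Their median distance to a reproducible summit was 24.3 kb. Within 5 kb, 2 of them had a reproducible summit, against 53.2% of all genes. These were resilin, the elastic protein of flexible cuticle, at 1368 bp and the pupal cuticle protein gene Pcp at 1670 bp. Some of the 29 genes, such as Acp65Aa and Edg78E, stand inside the Cpr clusters above. The list is therefore not a separate set of loci.

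A few genes that act on chitin had reproducible promoter peaks. Of 31 genes of chitin synthesis, organisation and turnover, 5 had a reproducible promoter summit (16.1%, against 23.9% of all genes). Gfat2, an enzyme of the hexosamine pathway that supplies chitin precursors, had relative signals of 0.824, 1.51 and 1.26, and Gnpnat, an acetyltransferase of that pathway, had 0.475, 0.531 and 0.610. The chitinase gene Cht7 had 1.56, 1.87 and 1.71. The chitinase-like genes Idgf2 and Idgf6 had 1.50, 1.65 and 1.52, and 0.802, 0.814 and 0.845. The chitin synthase gene kkv had no promoter summit, and its nearest reproducible summit lay 1015 bp away.

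Of 21 genes of cuticle tanning and pigmentation, 2 had a reproducible promoter summit (9.52%, against 23.9% of all genes). They were PPO3, a prophenoloxidase, with 1.39, 1.76 and 1.43, and Pu, which encodes GTP cyclohydrolase, with 0.620, 0.510 and 0.838. In both cases the summit was nearer to the TSS of another gene, CG9890 and CG4286. The dopamine synthesis genes ple and Ddc had none, at distances of 4184 and 965 bp from the nearest reproducible summit.

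Of 28 epidermal regulators and apical matrix genes, 6 had a reproducible promoter summit (21.4%), near the 23.9% of all genes. Among the transcription factors, ftz-f1, a known target of Hr3 at the onset of metamorphosis, had 1.41, 0.927 and 1.02. The tracheal factor gene trh had 2.12, 1.69 and 2.22. Hr39, another nuclear receptor, had 0.599, 0.604 and 0.492. The epidermal factor gene grh had 0.637, 1.01 and 0.678, where the TSS of an antisense RNA was nearer. Of the apical matrix genes, tyn had 0.880, 0.836 and 0.927 and snsl had 0.736, 1.07 and 1.16.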

How the data were processed

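Peak lists of GFP-tagged Hr3 ChIP-seq were used on dm6, the assembly of the Ensembl release 115 annotation and of the genome sequence used here. Fragments were sheared to 200 to 800 bp, per the labels' protocols. The relaxed lists stem from single replicates and from all 3 combined, and the irreproducible discovery rate gave the reproducible list, according to the authors' deposited notes. The deposited signal of a peak was taken as its strength, and the sources used here do not say how it was computed. None of the sources used here names the aligner, the caller or the threshold. The lists hold no reads, so the sequencing depth is unknown, and the control library was not analysed here.

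Summits were assigned to genes with Python 3.11.15, NumPy 2.4.6, SciPy 1.17.1 and pandas 2.3.3, and plotted with matplotlib 3.10.9. The assignment was tested on simulated data. A summit was counted for every gene in reach. A replicate's value at a summit is its strongest relaxed peak that covers it, or, at cuticle promoters, its strongest peak with a promoter summit. Intervals are exact binomial and cover counting error only. They treat the genes as independent, although many lie in clusters and some share a summit, so they may be too narrow. No test between samples was made, since there is 1 group.

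Members and lists were chosen with earlier results of these data known. Named genes were all members with a reproducible promoter summit, the 10 strongest summits within 5 kb, the 10 strongest weak promoter peaks, the clusters with their nearest bound flanking genes, and bound genes of the other lists. The members beyond these, and genes named as unbound, were chosen after their values were seen. Older symbols were replaced for 4 list genes, 2 list names (tan and aaNAT) repeated the genes t and speck, and dp was not matched. Alternatives were other promoter widths, distances and gaps, a stricter list and leaving out each replicate.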

Additional observations from a re-analysis of the deposited data

How the results depend on the processing

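No paired analysis was possible because there is 1 group. The count of 0 cuticle genes with a reproducible promoter summit was unchanged without any 1 replicate (0 to 0), against 19.7% to 20.7% of all genes. It was also 0 with promoters of 200 bp (16.9% of all genes) and in the stronger part of the list, above its median signal (14.6%). The same held with summits given only to the nearest gene (17.2%), among all compact isolated genes (7.50%) and among those of them with TATAAA (2.89%). Apart from leaving out a replicate, these settings narrow a rule that already gave 0, so they could not give more. The lists without 1 replicate held 4237 to 4503 peaks, fewer than the reproducible list, so a count of 0 in them adds little. With promoters of 1000 bp it was 3, against 27.0% of all genes. Within 5 kb the count of 20 was 4, 8 and 31 within 1000, 2000 and 10000 bp, against 33.3%, 39.4% and 67.1% of all genes. It was 7 above the median signal (37.1%), and 16 to 20 without 1 replicate (47.0% to 48.2%). Pooled promoter summits, 11 as reported, numbered 5 and 22 with promoters of 200 and 1000 bp (34.7% and 54.7% of all genes), 4 above the median signal (36.7%) and 5 among compact isolated genes with TATAAA (12.9%), a set chosen after seeing the data. The 4 genes with a promoter summit in all 3 replicates became 0 and 8 with promoters of 200 and 1000 bp (23.0% and 43.3% of all genes), and 4 to 7 when 1 replicate was left out (38.5% to 40.8%), 7 without replicate 1. The median distance of 15.5 kb was 16.0 kb from the TSS, 21.9 kb with peaks above the median signal and 15.8 to 17.2 kb without 1 replicate. Over all genes these values were 5.66 kb, 9.81 kb and 5.46 to 5.84 kb. Clusters with a reproducible summit inside numbered 4 with gaps of 10 and 40 kb too, of 14 clusters in each case instead of 13. TATAAA within 50 bases upstream was present in 64.2% of the cuticle genes, against 10.7% of all genes. The depth is unknown, so how many weaker promoter peaks the lists miss cannot be given.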
